A study of Mus musculus with 10 samples.

Results

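A group of 9 genes of the large hyaluronan-binding matrix was followed in Achilles tendon of mice with an inducible deletion of the tendon transcription factor Mkx. They were chosen by symbol, as the lectican core proteins Acan, Vcan, Bcan and Ncan, the link proteins Hapln1, Hapln3 and Hapln4, the lubricin gene Prg4 and the hyaluronan receptor Cd44, and all 9 had an entry among the 32285 genes of the deposited count table. Of these 9, 7 had enough counts to be tested. Prg4 was lower in Mkx-CreER/flox than in Mkx flox/+ tendons, a call that ended in 6 of the 10 omissions of a single library. Prg4 did not pass against Mkx-CreER/+ or against the mean of Mkx-CreER/+ and Mkx flox/+. Bcan, with 3 counts in all Mkx-CreER/flox libraries together and 53 in Mkx flox/+, entered the test only through Mkx flox/+. The transcripts of aggrecan and versican, Acan and Vcan, overlapped between the genotypes and did not pass in any comparison.

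Lecticans are core proteins that carry chondroitin sulfate chains. Their N-terminal globule binds hyaluronan, and a link protein clamps both together, so that many lecticans sit on each hyaluronan chain and hold water under compression. In tendon, aggrecan is known from regions that are compressed against bone, versican from the matrix around tendon cells and between fascicles, and lubricin from the gliding surfaces. CD44 is the main cell surface receptor that binds hyaluronan and takes it up.

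The study measured RNA of whole Achilles tendon by RamDA-seq, a library method that primes along the length of total RNA. There were 3 libraries of Mkx-CreER/flox mice, which carry a tamoxifen-inducible Cre made from the Mkx locus and a floxed Mkx allele, 3 of Mkx-CreER/+ mice, which carry the Cre only, and 4 of mice with the genotype label Mkx flox/+, which carry no Cre. Every mouse of the 3 genotypes had been given tamoxifen (20 mg/kg) at 6 weeks of age, and the tendons were collected 4 weeks later. The labels do not settle how many floxed copies the Mkx flox/+ mice carry, nor whether the CreER insertion alone reduces Mkx. Since Cre is made where Mkx is active, the deletion is limited to cells that express Mkx. The libraries are named here by the numbers of their table columns, 1, 4 and 5 for Mkx-CreER/flox, 1, 2 and 4 for Mkx-CreER/+ and 1 to 4 for Mkx flox/+. Sex is not given in the labels.

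Total counts per library ranged from 8680934 to 22656417. Mkx measured 26.1, 32.4 and 30.5 CPM (read counts scaled to library size, with TMM, a correction for library composition) in Mkx-CreER/flox, 91.4, 93.8 and 93.5 CPM in Mkx-CreER/+, and 187, 177, 121 and 153 CPM in Mkx flox/+. The 3 genotypes did not overlap in Mkx, and Mkx-CreER/flox was at 24.4% of the mean of the control genotypes (edgeR adjusted p = 0.000149). The mean share of counts held by 20 skeletal muscle genes was 9.43% ± 2.25 for Mkx-CreER/flox, 5.98% ± 2.56 for Mkx-CreER/+ and 3.50% ± 1.92 for Mkx flox/+ (SD, n = 3, 3 and 4). The highest muscle share, 11.98%, and the highest share of mitochondrially encoded transcripts, 8.85%, were both in Mkx-CreER/flox library 1. Markers of tendon cells were present in every library but lower in Mkx-CreER/flox, where 12 of them summed to 30728 to 45480 CPM, against 51157 to 70193 CPM in Mkx-CreER/+ and 87504 to 146488 CPM in Mkx flox/+. In whole tissue, fewer cells of a type and less RNA per cell cannot be told apart.

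The lectican and link protein genes lie in pairs in the mouse genome (mm10, with gene models of GENCODE release M21). Acan (ENSMUSG00000030607, chr7:79053483-79115099, plus strand) and Hapln3 (ENSMUSG00000030606, chr7:79115102-79131018, minus strand) face each other with 2 bases between their 3′ ends. Hapln1 (ENSMUSG00000021613, chr13:89539796-89611652, plus strand) lies 43.7 kb from the 3′ end of Vcan (ENSMUSG00000021614, chr13:89655312-89742509, minus strand). Against Mkx flox/+ the log2 difference was -0.21 for Acan and -1.21 for Hapln3, and it was -0.45 for Vcan and 0.61 for Hapln1, none of which passed in edgeR. Hapln4 (ENSMUSG00000007594, chr8:70083457-70090862, plus strand) ends 2.22 kb from Ncan (ENSMUSG00000002341, chr8:70093085-70120873, minus strand). Bcan (ENSMUSG00000004892, chr3:87987531-88000230, minus strand) neighbours Hapln2, which had 1 count in all 10 libraries together. Because the counting is not stated to use strand, reads that run past the 3′ ends of Acan and Hapln3 could be counted for either gene.

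The bases just upstream of Bcan and Hapln3 are shown because, with Prg4, they are the members whose Mkx-CreER/flox values all lay below those of Mkx flox/+. The same held for 9.50% of all tested genes. For Bcan, which entered the test only through Mkx flox/+, this lack of overlap is a description only. They are the 250 bases before the RefSeq start of each gene (GRCm38.p6, minus strand, 5′ to 3′), at chr3:88000357-88000606 for Bcan and chr7:79131019-79131268 for Hapln3. Capitals mark CANNTG, the E-box read by basic helix-loop-helix factors such as the tendon factor Scx, and TATAAA, both searched on both strands.
Bcan: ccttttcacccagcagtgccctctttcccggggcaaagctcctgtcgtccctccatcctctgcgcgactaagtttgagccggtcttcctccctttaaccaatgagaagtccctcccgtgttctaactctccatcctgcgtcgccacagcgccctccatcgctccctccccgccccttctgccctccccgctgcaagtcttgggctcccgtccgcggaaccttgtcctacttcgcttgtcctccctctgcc
Hapln3: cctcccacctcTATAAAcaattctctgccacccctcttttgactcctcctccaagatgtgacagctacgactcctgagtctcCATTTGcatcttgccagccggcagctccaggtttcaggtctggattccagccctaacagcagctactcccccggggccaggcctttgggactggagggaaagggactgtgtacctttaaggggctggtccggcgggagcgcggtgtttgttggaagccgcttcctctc
The Bcan sequence is 62% G and C and holds neither motif, and the Hapln3 sequence is 58% G and C and holds 1 of each, with the TATAAA starting 239 bases before the start. Of 32851 mouse upstream regions of this length, 66.2% hold CANNTG and 12.4% hold TATAAA.

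The members spanned a wide range of levels. Per kilobase of merged exons, Prg4 averaged 1967 CPM over the 10 libraries, Vcan 40.0, Cd44 26.3, Acan 8.57, Hapln1 3.49 and Hapln3 1.46, while Bcan (0.150), Hapln4 (0.144) and Ncan (0.0441) were near the limit of detection. Prg4 ranked 19th of the 16017 tested genes per length in Mkx-CreER/flox, 15th in Mkx-CreER/+ and 14th in Mkx flox/+. The order from Prg4 to Hapln3 was the same in the means of each genotype. Vcan was above Cd44 in 10 of 10 libraries by an average ratio of 1.52, although their ranges over the 10 libraries overlapped. Acan was above Hapln1 in 9 of 10 libraries and Hapln1 above Hapln3 in 8 of 10, so these neighbours were not separated in every library. The order of Bcan, Hapln4 and Ncan changed between genotypes, and their ranges overlapped.

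**Figure D1:**
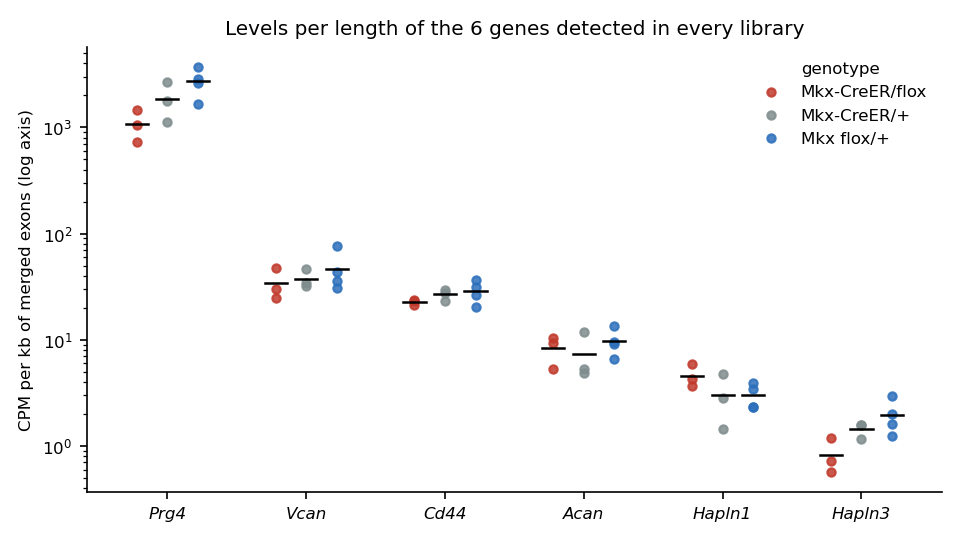
Levels of the 6 genes detected in every library, in CPM per kilobase of merged exons on a log axis, with 1 point per library and a bar at the mean of each genotype. Prg4 lies far above the rest in all 3 genotypes, at a mean of 1079 in Mkx-CreER/flox, 1852 in Mkx-CreER/+ and 2719 in Mkx flox/+, and the 3 genotypes overlap in Vcan, Cd44, Acan and Hapln1.

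Among the lecticans, aggrecan and versican made up nearly all of the counts. Acan, which encodes the most heavily sulfated core protein, measured 39.9, 69.7 and 77.5 CPM in Mkx-CreER/flox, 36.6, 39.6 and 88.0 CPM in Mkx-CreER/+ and 100.2, 49.4, 70.9 and 68.3 CPM in Mkx flox/+. The low and high libraries were spread over all 3 genotypes, which overlapped. The difference between Mkx-CreER/flox and the mean of the control genotypes was -0.012 on the log2 scale (95% interval -0.66 to 0.63, edgeR adjusted p = 0.988), so differences inside that interval could not be resolved with these libraries. The difference was 0.19 against Mkx-CreER/+ (interval -0.57 to 0.94) and -0.21 against Mkx flox/+ (interval -0.92 to 0.50), and neither passed. The sign of the Acan difference also turned between settings: against both controls it was 0.20 with a muscle score as a covariate and 0.28 in limma voom.

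Vcan, which encodes the larger and more widespread versican, measured 432, 356 and 689 CPM in Mkx-CreER/flox, 462, 497 and 671 CPM in Mkx-CreER/+ and 1096, 449, 625.3 and 512 CPM in Mkx flox/+. Mkx flox/+ library 1 was the highest, and the other 9 libraries of the 3 genotypes overlapped. The log2 difference of Mkx-CreER/flox was -0.29 from the mean of the control genotypes (interval -0.90 to 0.31, edgeR adjusted p = 0.615), -0.14 from Mkx-CreER/+ and -0.45 from Mkx flox/+ (interval -1.11 to 0.22), and none passed.

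Brevican (Bcan) and neurocan (Ncan), known as lecticans of the nervous system, had few counts. Bcan had 0, 3 and 0 counts in Mkx-CreER/flox, 4, 2 and 13 counts in Mkx-CreER/+ and 16, 5, 15 and 17 counts in Mkx flox/+. The Mkx-CreER/flox libraries lay below every Mkx flox/+ library also after scaling (0, 0.147 and 0 CPM, against 1.56, 0.568, 0.853 and 2.04 CPM), and the Mkx-CreER/+ libraries, at 0.296, 0.105 and 0.547 CPM, lay between them and overlapped with Mkx-CreER/flox. Bcan reached the test only because 3 of the Mkx flox/+ libraries passed the filter on low counts, so a gene this low had to differ to be tested, and its edgeR result against Mkx flox/+ (log2 difference -4.15, adjusted p = 0.0280) is given as a description only. The pooled counts, 3 in Mkx-CreER/flox and 53 in Mkx flox/+, put the ratio at 5.67% (95% interval 1.13 to 17.5%, counting error only). Against Mkx-CreER/+ the pooled ratio was 19.8% (interval 3.75 to 67.2%) and the edgeR test did not pass (adjusted p = 0.502). The edgeR result against Mkx flox/+ was above 0.05 without Mkx-CreER/flox library 1 (adjusted p = 0.0837) or library 5 (adjusted p = 0.0631). In the omissions of Mkx flox/+ library 1, 3 or 4 Bcan was not tested, so that it had no call against Mkx flox/+ in 5 of 10 omissions. With Mkx-CreER/flox library 4 left out, that genotype had 0 counts and the fitted difference from Mkx flox/+ was -7.13, which is no bound. With a muscle score as covariate the log2 difference from Mkx flox/+ was -3.97 (edgeR adjusted p = 0.0960).

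The 15 markers of Schwann cells and nerve, the tissue these lecticans are known from, summed to 557 to 2463 CPM in Mkx-CreER/flox, 516 to 1107 CPM in Mkx-CreER/+ and 523 to 912 CPM in Mkx flox/+. Of the 14 tested, 14 were higher than in Mkx flox/+, with a median log2 difference of 2.21, against 0.0091 over all tested genes. From Mkx-CreER/+ 14 were higher too, with a median of 1.79, against 0.026. Relative to Mkx flox/+ 2 of the 14 were called higher and 0 lower, where 4.37% of all genes rose and 2.90% fell. The part of nerve in the Bcan counts was not tested. Ncan had 2, 0 and 0 counts in Mkx-CreER/flox, 30, 2 and 2 counts in Mkx-CreER/+ and 6, 0, 0 and 0 counts in Mkx flox/+, and it was not tested. A single library, Mkx-CreER/+ 1, held most of them, and the genotypes overlapped. In the Mkx-CreER/flox libraries without a count, a count of 0 allows up to 0.147 and 0.222 CPM.

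**Figure D2:**
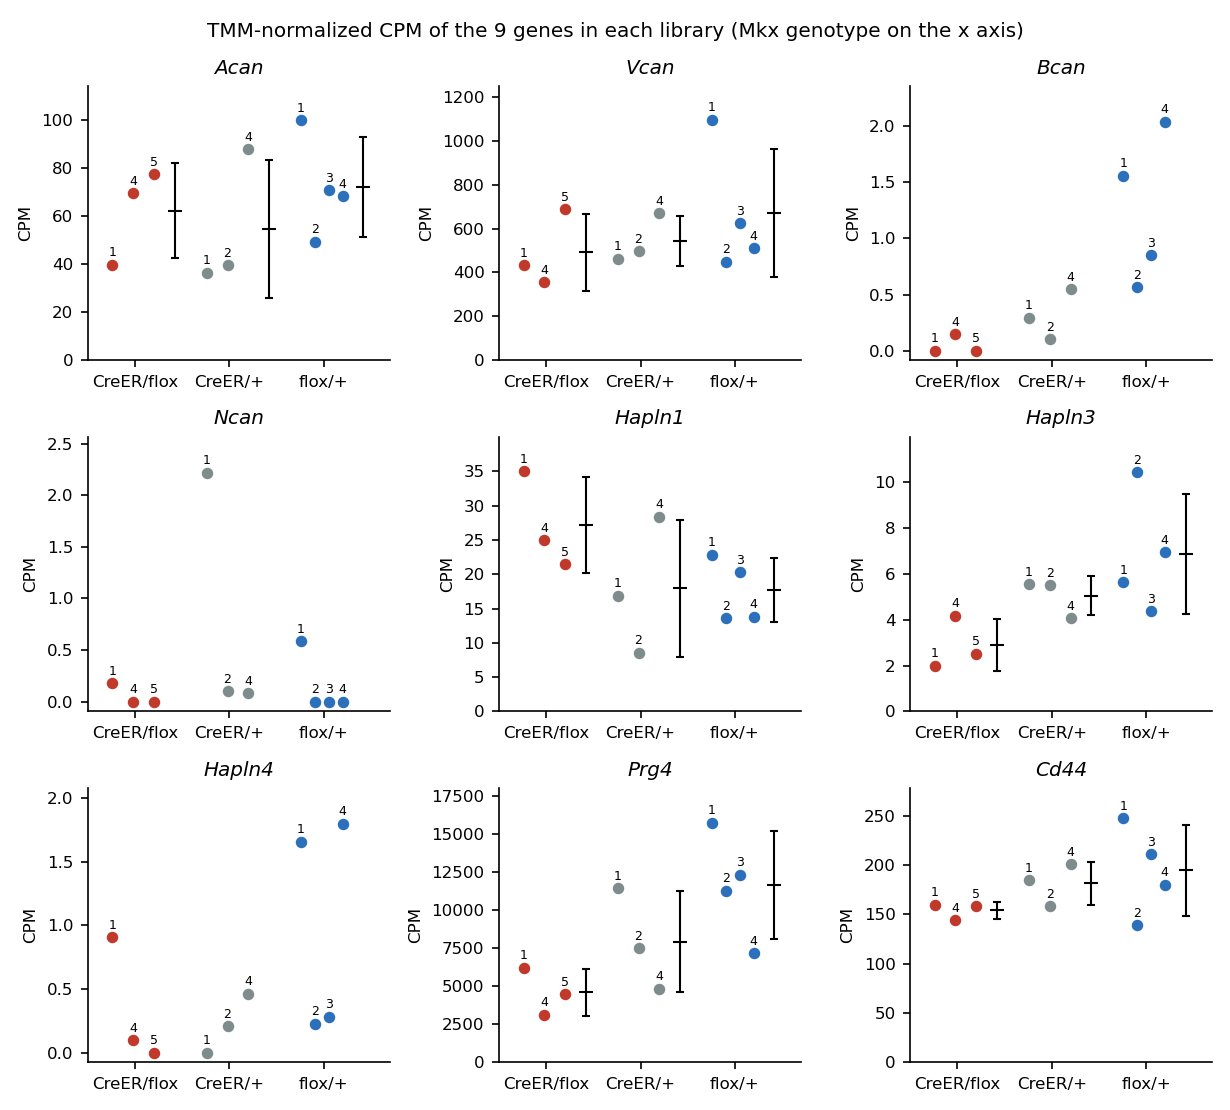
TMM-normalized CPM of each gene in each library, numbered by table column, with Mkx-CreER/flox left, Mkx-CreER/+ in the middle and Mkx flox/+ right; the cross and bar give the mean and SD of the genotype and are left out for Bcan, Ncan and Hapln4, whose counts are near 0. Mkx-CreER/flox lies below every Mkx flox/+ library in Bcan, Hapln3 and Prg4, and the genotypes overlap in the other 6 genes.

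None of the link proteins, which lock a lectican to hyaluronan, passed in edgeR. Hapln1, the cartilage link protein, measured 35.01, 24.99 and 21.4 CPM in Mkx-CreER/flox, 16.9, 8.57 and 28.4 CPM in Mkx-CreER/+ and 22.9, 13.6, 20.3 and 13.8 CPM in Mkx flox/+. Mkx-CreER/flox library 1 was the highest of all 10, and its genotype overlapped with each control. Mkx-CreER/flox averaged 27.1 ± 7.04 CPM, against 17.9 ± 9.95 CPM for Mkx-CreER/+ and 17.6 ± 4.67 CPM for Mkx flox/+ (SD, n = 3, 3 and 4), a log2 difference of 0.60 from the mean of the controls (interval -0.038 to 1.24, edgeR adjusted p = 0.273). As a fold, that interval runs from 0.974 to 2.37.

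Hapln3, a link protein known from a broader set of tissues than Hapln1, measured 1.99, 4.17 and 2.51 CPM in Mkx-CreER/flox, 5.55, 5.52 and 4.08 CPM in Mkx-CreER/+ and 5.65, 10.5, 4.38 and 6.95 CPM in Mkx flox/+. The Mkx-CreER/flox libraries lay below every Mkx flox/+ library, and library 4 overlapped with Mkx-CreER/+ by a small margin. The log2 difference was -0.998 from the mean of the controls (SE 0.34, edgeR adjusted p = 0.110), -0.78 from Mkx-CreER/+ (SE 0.39, adjusted p = 0.500) and -1.21 from Mkx flox/+ (SE 0.37, adjusted p = 0.0631), and none passed in edgeR. In DESeq2 the first and the last passed (adjusted p = 0.0481 and 0.0201), so the call depends on the tool.

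Hapln4, known as a link protein of the brain, had 10, 2 and 0 counts in Mkx-CreER/flox, 0, 4 and 11 counts in Mkx-CreER/+ and 17, 2, 5 and 15 counts in Mkx flox/+, and was not tested. High and low counts occurred in every genotype.

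Prg4 was by far the most abundant of the 9 transcripts, and its mean was lowest in Mkx-CreER/flox. It encodes lubricin, the mucin-like glycoprotein that lets tendon surfaces and joint surfaces slide, and lies at chr1:150449412-150466165 on the minus strand (ENSMUSG00000006014), with 4.77% of its exon length shared with Tpr on the other strand. Prg4 measured 6220, 3134 and 4502 CPM in Mkx-CreER/flox, 11446, 7499 and 4836 CPM in Mkx-CreER/+ and 15752, 11291, 12341 and 7168 CPM in Mkx flox/+. The knockout libraries lay below every Mkx flox/+ library and overlapped with Mkx-CreER/+ library 4. As a share of all counts, Prg4 averaged 0.447% ± 0.0943 for Mkx-CreER/flox, 0.822% ± 0.356 for Mkx-CreER/+ and 1.15% ± 0.372 for Mkx flox/+ (SD, n = 3, 3 and 4).

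Relative to Mkx flox/+, Prg4 fell by 1.33 on the log2 scale in Mkx-CreER/flox, to 39.7% of the Mkx flox/+ level (interval 23.1 to 68.1%, edgeR adjusted p = 0.0396). Relative to Mkx-CreER/+ the log2 difference was -0.78 (interval -1.59 to 0.027, adjusted p = 0.484), and relative to the mean of the controls it was -1.06 (interval -1.77 to -0.34, adjusted p = 0.0851), and neither passed in edgeR. Mkx-CreER/+ itself was at 68.1% of the Mkx flox/+ level (log2 difference -0.55, interval -1.31 to 0.21). The call against Mkx flox/+ ended in 6 of the 10 omissions of a library, those of Mkx-CreER/flox 4 (adjusted p = 0.149) and 5 (0.0671), Mkx-CreER/+ 2 (0.0535) and Mkx flox/+ 1 (0.112), 2 (0.0781) and 3 (0.0871). It also ended with the muscle score as a covariate (adjusted p = 0.212, with a log2 difference of -1.14), and it held without Mkx-CreER/flox library 1 (-1.63, adjusted p = 0.0336).

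Prg4 is a marker of synovial lining and tendon sheath, so the other markers of those cells are given beside it. All 12 of that list were detected, and their summed level was 1040 to 1096 CPM in Mkx-CreER/flox, 1113 to 1603 CPM in Mkx-CreER/+ and 1104 to 1456 CPM in Mkx flox/+. Every Mkx-CreER/flox library was below both controls, but by a small margin (1096 against 1104 CPM). Within that sum, Ly6a averaged 214 ± 10.7 CPM in Mkx-CreER/flox, 436 ± 163 CPM in Mkx-CreER/+ and 346 ± 79.2 CPM in Mkx flox/+ (SD, n = 3, 3 and 4). Col15a1 averaged 145 ± 20.1, 151 ± 45.5 and 247 ± 67.8 CPM in the same order. Of the 12, 1 rose relative to Mkx flox/+ and 0 fell, where 4.37% of all genes rose and 2.90% fell. A negative difference was found in 10, and the median was -0.50, against 0.0091 over all tested genes. The gene that rose was the chloride channel family gene Clic5 (log2 difference 1.74, edgeR adjusted p = 0.00475). Clic5 measured 318.5, 192.8 and 141.4 CPM in Mkx-CreER/flox libraries 1, 4 and 5. Its call was kept in all 10 omissions of a library. It ended with a muscle score as a covariate (log2 difference 1.43, edgeR adjusted p = 0.0529). Among the markers of this list that did not pass, Htra4 averaged 51.04 ± 17.0 CPM in Mkx-CreER/flox (SD, n = 3), against 71.04 ± 21.6 CPM in Mkx flox/+ (n = 4). The lining marker Cd55 averaged 71.3 ± 12.8 CPM in Mkx-CreER/flox, against 80.03 ± 10.2 CPM in Mkx flox/+. The part of these cells in the Prg4 difference was not tested.

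Cd44 (ENSMUSG00000005087, chr2:102811141-102901665, minus strand) varied least of the 6 members with counts in every library, with a root mean square of 0.25 around its mean log2 CPM. It measured 160, 144 and 158 CPM in Mkx-CreER/flox, 185, 158 and 201 CPM in Mkx-CreER/+ and 247, 139, 211 and 180 CPM in Mkx flox/+. The knockout libraries sat within the range of Mkx flox/+ and overlapped with Mkx-CreER/+. The log2 difference was -0.28 from the mean of the controls (interval -0.66 to 0.096, edgeR adjusted p = 0.397), -0.23 from Mkx-CreER/+ and -0.33 from Mkx flox/+, and none passed. The 15 macrophage markers, from cells that also carry CD44, summed to 863 to 941 CPM in Mkx-CreER/flox, 1215 to 2952 CPM in Mkx-CreER/+ and 1845 to 2946 CPM in Mkx flox/+, and their part in the Cd44 values was not tested.

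Counted over the comparisons, 0 of the 7 tested members passed between Mkx-CreER/flox and the mean of the controls, where 4.65% of all tested genes passed (3.03% higher and 1.62% lower). Against Mkx-CreER/+ 0 of 7 passed in edgeR, where 0.00624% of all genes did, a single gene that was Mkx itself; at an unadjusted p under 0.05 the counts were 0 of 7 members and 1720 of 16017 genes, and limma voom called 1 member, Prg4. Against Mkx flox/+ 2 of 7 passed, both lower, Prg4 and Bcan, and without Bcan, which entered only through Mkx flox/+, 1 of 6 did, where 7.27% of all genes passed in either direction, 4.37% higher and 2.90% lower. In that comparison 3 of 7 did not overlap and were lower, where 9.50% of all genes were. Without Bcan, whose lack of overlap is a description only for the same reason, these were Hapln3 and Prg4. Between Mkx-CreER/+ and Mkx flox/+ 0 of 7 members and 0% of all genes passed in edgeR. At an unadjusted p under 0.05 there were 1 member, Bcan, and 798 genes, and DESeq2 called 0 members and 37 genes. The p-values measure the spread between these libraries, and the labels do not state that each came from a separate mouse. The comparisons with the single control genotypes share the 3 Mkx-CreER/flox libraries.

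**Figure D3:**
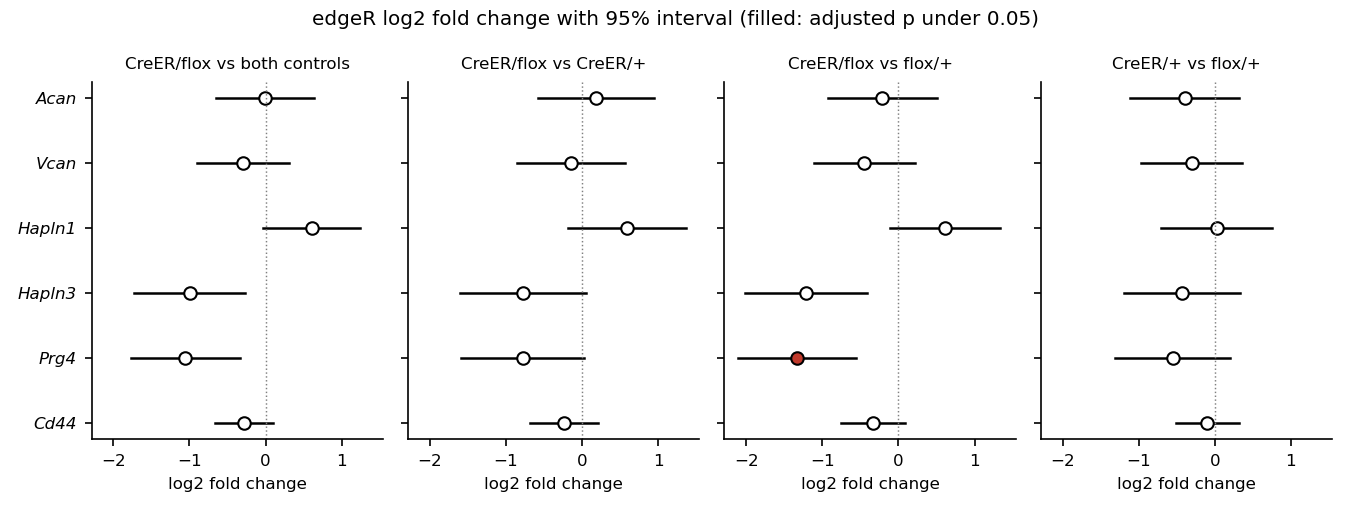
edgeR log2 fold change (point) and 95% interval (line) of the 6 members with counts in every library, in each comparison; the fill marks an adjusted p under 0.05. Prg4 against Mkx flox/+, at -1.33, is the filled point, and the intervals of Acan, Vcan, Hapln1 and Cd44 include 0 in all 4 comparisons.

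Transcripts of members that meet in the aggregate were set against each other as ratios of CPM per kilobase within each library. These are RNA ratios, and the make-up of the protein and hyaluronan aggregate itself was not measured. The ratio of Acan to Vcan was 0.179 to 0.379 in Mkx-CreER/flox, 0.153 to 0.254 in Mkx-CreER/+ and 0.177 to 0.258 in Mkx flox/+, so versican transcripts were the more abundant in all 10 libraries. The ratio of Hapln1 to Acan was 0.350 to 1.11 in Mkx-CreER/flox, 0.274 to 0.583 in Mkx-CreER/+ and 0.255 to 0.362 in Mkx flox/+. The highest value came from Mkx-CreER/flox library 1, which combined the highest Hapln1 with a low Acan, and the genotypes overlapped in both ratios. On the log2 scale the Hapln1 to Acan ratio differed by 0.69 between Mkx-CreER/flox and the controls (two-sided exact permutation p = 0.0917) and by 0.85 between Mkx-CreER/flox and Mkx flox/+ (exact p = 0.0571, where 0.0286 is the smallest possible). Over the 8 comparisons of the 2 ratios the adjusted exact p ran from 0.367 to 0.600, and none passed.

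**Figure D4:**
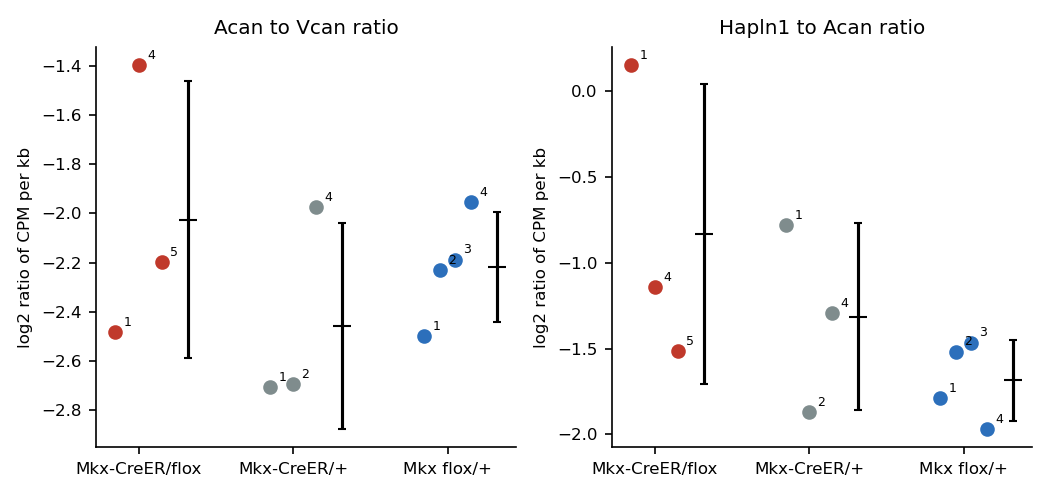
Log2 ratio of Acan to Vcan (left) and of Hapln1 to Acan (right), from CPM per kilobase of merged exons, in each library, numbered by table column, with the mean and SD of each genotype. The genotypes overlap in both ratios, and Mkx-CreER/flox library 1 has the highest Hapln1 to Acan ratio, 1.11 on the linear scale.

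Around the members, the genes that build, bind and cut hyaluronan and the lecticans were counted in 7 lists. Against Mkx-CreER/+ 0 of the 98 tested genes in these lists passed in edgeR, where 0.00624% of all tested genes did. At an unadjusted p under 0.05 there were 21 of the 98, where 10.7% of all tested genes were. DESeq2 called 3 of the 98 and limma voom 12, and the counts over all genes with these tools are given further below. The smallest p in each list belonged to Gfpt2, Tlr2, Habp2, Ctss, Ank3, Chst14 and Tnc, with adjusted p of 0.237 for Ank3 to 0.376 for Tnc. The values below are therefore from the comparisons with the mean of the controls and with Mkx flox/+, and those with Mkx-CreER/+ stand beside them where they are of use. Each count against Mkx flox/+ stands against 4.37% of all genes that rose and 2.90% that fell.

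The hyaluronan synthases did not pass in any comparison. Has1, Has2 and Has3 averaged 6.21 ± 1.15, 11.6 ± 0.883 and 11.4 ± 2.09 CPM in Mkx-CreER/flox (SD, n = 3), against 7.58 ± 2.24, 12.7 ± 4.29 and 11.97 ± 3.82 CPM in Mkx flox/+ (n = 4). Of the 9 tested genes of hyaluronan synthesis 1 rose relative to Mkx flox/+ and 0 fell, with a median log2 difference of -0.29, against 0.0091 over all tested genes. The gene that rose was Ugp2, which makes the UDP-glucose that feeds hyaluronan, glycogen and other glycans. Ugp2 measured 698, 284 and 188 CPM in Mkx-CreER/flox, 170, 141 and 216 CPM in Mkx-CreER/+ and 122, 76.0, 109 and 123 CPM in Mkx flox/+. The knockout lay above Mkx flox/+ (log2 difference 1.86, edgeR adjusted p = 0.0125), overlapped with Mkx-CreER/+ and was highest in library 1, the library with the highest muscle share. Without that library the log2 difference of Ugp2 was 1.11 from Mkx flox/+, still called, and 0.76 from the mean of the controls (edgeR adjusted p = 0.0855), against 1.51 with it.

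Of 14 tested genes of hyaluronan turnover and its receptors, 2 fell and 0 rose relative to Mkx flox/+ and likewise relative to the mean of the controls, and 11 of the 14 differences from Mkx flox/+ were negative. Tlr2, a pattern receptor that hyaluronan fragments can engage, averaged 23.1 ± 2.05 CPM for Mkx-CreER/flox, against 36.8 ± 6.55 CPM for Mkx-CreER/+ and 40.8 ± 2.54 CPM for Mkx flox/+ (SD, n = 3, 3 and 4), and lay below every control library (log2 difference from Mkx flox/+ -0.82, edgeR adjusted p = 0.0160). Hexa, a lysosomal hexosaminidase that trims hyaluronan fragments, fell relative to Mkx flox/+ (-0.95, adjusted p = 0.0201). Tlr2 is strongly expressed by macrophages, whose markers were lower in the same libraries, as given above, and their part in the Tlr2 values was not tested. The lymphatic hyaluronan receptor Lyve1 (39.2 ± 11.2 CPM in Mkx-CreER/flox and 60.9 ± 24.8 CPM in Mkx flox/+) and the hyaluronan-degrading Cemip (20.5 ± 4.82 CPM in Mkx-CreER/flox and 17.6 ± 4.04 CPM in Mkx flox/+) did not pass.

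Of 9 tested genes that bind hyaluronan or transfer heavy chains to it, 1 rose relative to Mkx flox/+ and 0 fell. Habp2, known as a circulating serine protease that binds hyaluronan, measured 2.71, 3.34 and 1.92 CPM in Mkx-CreER/flox, 0.666, 0.420 and 0.883 CPM in Mkx-CreER/+ and 0.292, 0.568, 0 and 0.479 CPM in Mkx flox/+. Every knockout library was above every control library, at a low level (log2 difference from Mkx flox/+ 3.10, SE 0.75, edgeR adjusted p = 0.0248). Habp2 passed the filter on low counts through the Mkx-CreER/flox libraries, where it is high, so its test is a description only. The other 8 tested genes of this list did not pass. Tnfaip6, which transfers heavy chains onto hyaluronan, averaged 11.6 ± 3.03 CPM in Mkx-CreER/flox and 13.3 ± 3.61 CPM in Mkx flox/+ and did not pass.

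Of 15 tested enzymes that cut lecticans or lubricin, 2 rose, 5 fell and 8 did not pass relative to Mkx flox/+, where 4.37% of all genes rose and 2.90% fell. Relative to the mean of the controls 2 rose, 2 fell and 11 did not pass, where 3.03% of all genes rose and 1.62% fell. The 2 that rose were Adamts20 and Adamts8. With the 7 controls as 1 group both lost that call (edgeR adjusted p = 0.0819 and 0.0996). Adamts20, a versican-cleaving protease, averaged 39.2 ± 4.26 CPM for Mkx-CreER/flox, against 21.4 ± 9.26 CPM for Mkx-CreER/+ and 10.3 ± 6.07 CPM for Mkx flox/+ (SD, n = 3, 3 and 4). It lay above every control library (log2 difference from Mkx flox/+ 1.96, edgeR adjusted p = 0.0118). Adamts8, a related protease, rose by 2.13 relative to Mkx flox/+ (adjusted p = 0.0189) and overlapped with Mkx-CreER/+, where library 4 had 39.2 CPM.

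Htra1, a secreted serine protease that cleaves several matrix proteins, measured 247, 128 and 191 CPM in Mkx-CreER/flox, 357, 354 and 225 CPM in Mkx-CreER/+ and 623, 637, 565 and 553 CPM in Mkx flox/+. Both Mkx-CreER genotypes lay below every Mkx flox/+ library, and they overlapped with each other (log2 difference of Mkx-CreER/flox from Mkx flox/+ -1.66, edgeR adjusted p = 0.00364). Ctss, a lysosomal protease that is also in the macrophage list, fell by 1.03 relative to Mkx flox/+ (adjusted p = 0.0250). The other genes that fell there, named after their values were seen, were Mmp2 (-0.87), its activator Mmp14 (-0.83) and the lysosomal Ctsl (-0.71). The main aggrecanases known from cartilage did not pass: Adamts5 averaged 285 ± 23.3 CPM in Mkx-CreER/flox and 204 ± 46.9 CPM in Mkx flox/+, and Adamts4 averaged 1.49 ± 1.01 CPM in Mkx-CreER/flox and 1.44 ± 0.770 CPM in Mkx flox/+.

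Of 11 tested partners of CD44, 1 rose and 1 fell relative to Mkx flox/+. Ank3, an ankyrin that links membrane proteins including CD44 to the spectrin skeleton, measured 114, 119 and 143 CPM in Mkx-CreER/flox, 54.7, 74.5 and 69.5 CPM in Mkx-CreER/+ and 59.1, 60.3, 69.5 and 62.8 CPM in Mkx flox/+. The knockout libraries lay above all 7 control libraries, and the control genotypes overlapped (log2 difference from the mean of the controls 0.95, SE 0.14, edgeR adjusted p = 0.00825). The corresponding difference from Mkx-CreER/+ alone was 0.92 (adjusted p = 0.237). Ezr, which ties the tail of CD44 to actin, fell by 0.77 relative to Mkx flox/+ (adjusted p = 0.0316), while its relatives Rdx (0.41) and Msn (-0.074) did not pass. Cd74, the invariant chain that signals through CD44 and is made by antigen-presenting cells, fell by 1.01 relative to the mean of the controls (adjusted p = 0.0381). With the 7 controls as 1 group that call ended (edgeR adjusted p = 0.0536).

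Of 27 tested genes that make the chondroitin and dermatan sulfate chains, 4 fell and 0 rose relative to Mkx flox/+, where 2.90% of all genes fell and 4.37% rose. Of the 27 differences 20 were negative, with a median of -0.24, against 0.0091 over all tested genes. Those that fell were Chst14 (-1.37, edgeR adjusted p = 0.0135), which sulfates dermatan, Chst12 (-1.36, adjusted p = 0.0200), which sulfates chondroitin, the chain-polymerizing Chpf (-0.94, adjusted p = 0.0297) and the epimerase Dse (-0.63, adjusted p = 0.0328). Chst14 measured 9.23, 5.16 and 6.88 CPM in Mkx-CreER/flox, 18.7, 10.5 and 10.7 CPM in Mkx-CreER/+ and 16.0, 16.1, 18.5 and 22.1 CPM in Mkx flox/+, and was lower in every knockout library than in any control library. The chain initiators Xylt1 (-0.078) and Xylt2 (-0.43) did not pass.

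Of 13 tested matrix partners that lecticans bind, 2 fell and 0 rose relative to Mkx flox/+. Tnc, tenascin-C, measured 190, 246 and 255 CPM in Mkx-CreER/flox, 364, 504 and 288 CPM in Mkx-CreER/+ and 585, 324, 594 and 707 CPM in Mkx flox/+, with every knockout library below every control library (log2 difference from Mkx flox/+ -1.26, edgeR adjusted p = 0.0154). Fbln2, a fibulin that binds versican and aggrecan, fell by 1.09 (adjusted p = 0.0263). Tnc is also in the tendon cell list, whose summed level, which includes Tnc, was lower in the same libraries. The part of tendon cells in the Tnc values was not tested. Among the partners that did not pass, Fn1 averaged 3499 ± 909 CPM in Mkx-CreER/flox and 6023 ± 671 CPM in Mkx flox/+, and Comp averaged 2765 ± 1510 CPM in Mkx-CreER/flox and 2968 ± 943 CPM in Mkx flox/+.

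Of the pathway genes called relative to Mkx flox/+ and named by the rule in the methods, 16 in all, 5 kept the call in every omission of a library, Ugp2, Htra1, Adamts20, Ank3 and Tnc. Of the 12 called relative to the mean of the controls, Ank3 did. With the muscle score as a covariate, 3 of 16 stayed called relative to Mkx flox/+ (Tlr2, Htra1 and Tnc) and 3 of 12 relative to the mean of the controls (Tlr2, Htra1 and Ank3). The log2 differences of the 13 that lost their call relative to Mkx flox/+ were 0.740 to 1.17 times those without the covariate, and those of the 9 that lost it relative to the mean of the controls 0.855 to 1.16 times. Habp2, whose test is a description only, is counted in the 16, the 12, the 13 and the 9. It gave the 1.17, with a log2 difference from Mkx flox/+ of 3.64 with the covariate and 3.10 without.

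**Figure D5:**
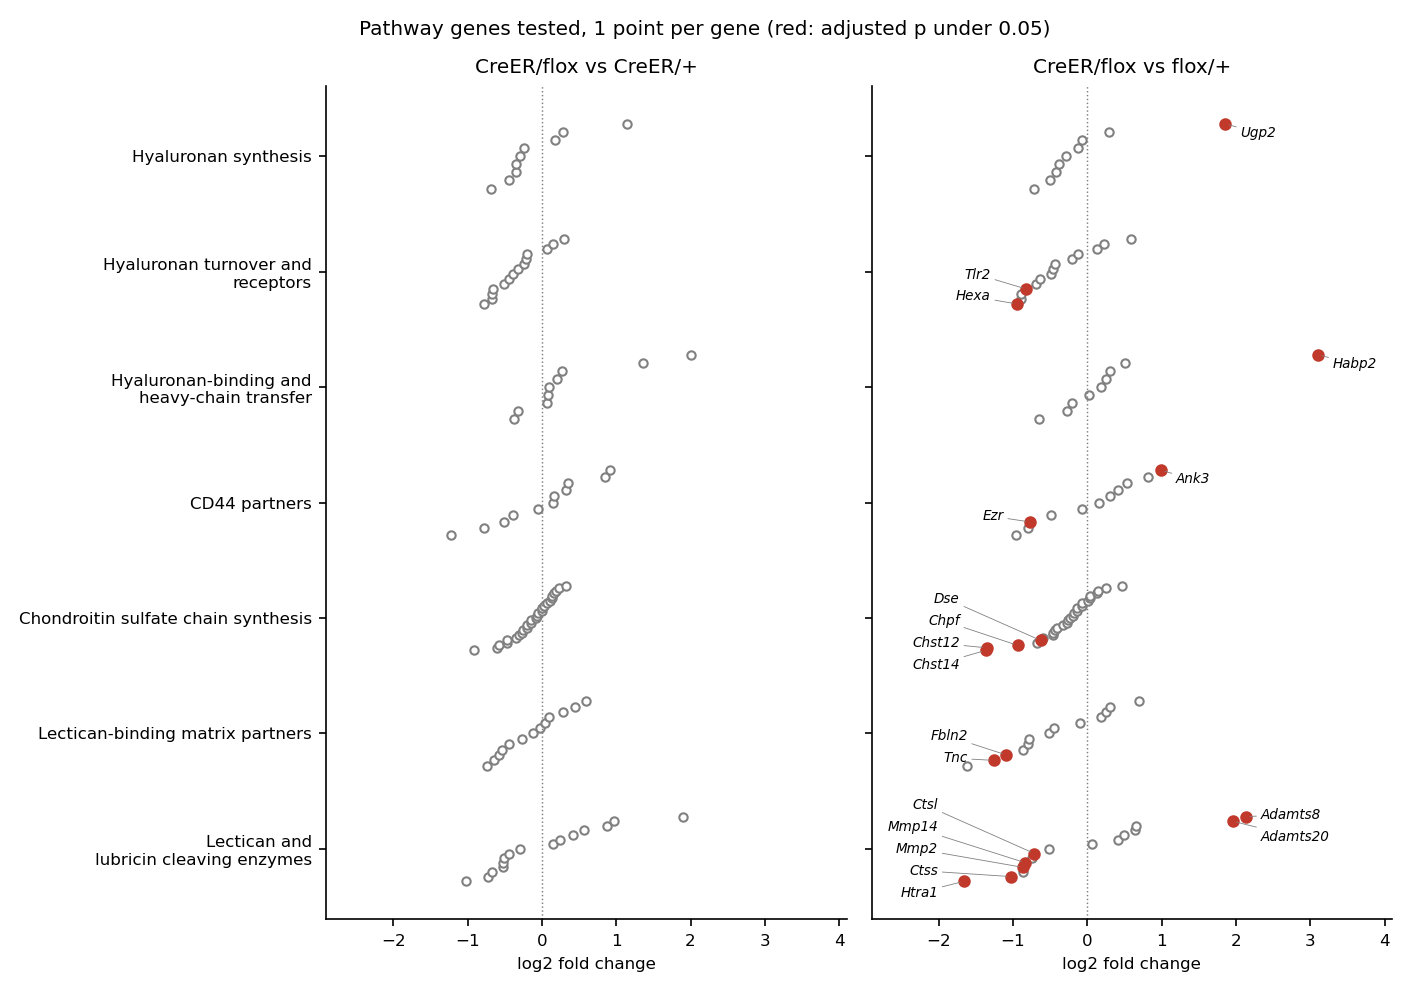
The edgeR log2 fold changes of the tested genes of the 7 lists, with 1 point per gene, for Mkx-CreER/flox against Mkx-CreER/+ (left) and against Mkx flox/+ (right); red points have an adjusted p under 0.05. No gene is red on the left, and on the right the red points lie on both sides of 0 for the cleaving enzymes and the CD44 partners and below 0 for the chondroitin sulfate genes.

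The genes whose pattern over the 10 libraries came closest to each member were found by the root mean square (RMS) difference of log2 CPM after each gene was centred on its own mean. For Prg4 these were Pla2g12b (0.23), Lgals3 (0.26) and Tmem100 (0.26), where Prg4 itself varied by an RMS of 0.71. For Acan they were Xylt1, the first enzyme of chondroitin chain assembly, Srebf2 and Zc3hav1l (0.20 each), against an RMS of 0.49 for Acan. For Cd44 they were Golim4 (0.12), the CD44 partner Msn (0.13) and Tram1 (0.14), against 0.25 for Cd44. For Vcan they were Top3a (0.19), Slc38a1 (0.22) and Hr (0.24), for Hapln1 Efr3b (0.21), Mtf2 (0.25) and Zxdb (0.25), and for Hapln3 Arhgef4 (0.29), Sytl4 (0.30) and Cbr3 (0.30). The RMS values of the members were 0.44 for Vcan, 0.56 for Hapln1 and 0.63 for Hapln3.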

How the data were processed

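The authors deposited 1 table of whole-number read counts per Ensembl gene for 10 libraries, with no normalization seen in the values. Reads were trimmed with fastp and aligned with STAR to mm10, per the submitters' processing notes; the sources used here name no versions, counting tool, annotation or strand setting. The Mkx flox/+ columns carry the labels' replicate numbers, while the Mkx-CreER columns were assigned by genotype only. Of 32285 identifiers, 32235 matched GENCODE M21, which gave symbols and exon lengths. Counts were filtered with filterByExpr (16017 genes kept) and tested with edgeR 4.0.16 (quasi-likelihood, TMM, R 4.3.3) in 1 fit over all libraries, with Benjamini-Hochberg adjustment and calls under 0.05. The members, lists and tests were chosen with earlier results of these data known. The genes named are the members, Mkx, from each list the up to 4 called genes of smallest p (otherwise the gene of smallest p), and for each member of average log2 CPM of at least 1 the 3 genes of nearest pattern (log2 CPM with a prior count of 2); other list genes are named for their known roles. The script was tested on simulated data. Alternatives were DESeq2 1.42.0, limma 3.58.1 voom with sample weights, RLE scaling, no filter, a stricter filter (1 CPM in 3 libraries), a score over the 20 muscle genes as covariate, only the groups compared, and each library left out. Total counts ranged from 8680934 to 22656417. Intervals on counts and the 3-count floor cover counting error only, since reads carry no molecular identifiers. Upstream sequences are from RefSeq (GRCm38.p6); 7 of the 9 members matched, without Hapln4 and Prg4.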

Additional observations from a re-analysis of the deposited data

How the results depend on the processing

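No paired analysis was possible because the columns of the Mkx-CreER/flox and Mkx-CreER/+ libraries do not carry the replicate numbers of the labels, and nothing says that a shared column number marks a pair. The muscle covariate without Mkx-CreER/flox library 1 was chosen after seeing the data. Depth limits Bcan, Ncan and Hapln4, and 3 libraries per Mkx-CreER genotype limit the tests of all members; the cause of the changes below was not tested. Member levels under RLE scaling moved by less than 1 SD.

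Of the 7 tested members, against both controls 2 passed in DESeq2, 1 in limma voom, 1 without a filter and 0 to 1 with a library left out; against Mkx-CreER/+ 1 passed in limma voom; against Mkx flox/+ 1 passed with the stricter filter, which removed Bcan, 0 with the muscle covariate, 0 with that covariate and library 1 left out, and 0 to 2 with a library left out. Of all genes, against both controls 1459 passed in DESeq2, 2991 in limma voom, 97 with the muscle covariate, 198 with that covariate and library 1 left out, and 64 to 1114 with a library left out. Against Mkx-CreER/+ the counts were 126, 715, 9 without a filter, 0 with only the groups compared, 8 with the covariate and library 1 left out, and 0 to 117 with a library left out. Against Mkx flox/+ they were 1866 in DESeq2, 2853 in limma voom, 187 with the covariate, 400 with the covariate and library 1 left out, and 455 to 1585 with a library left out. For Mkx-CreER/+ against Mkx flox/+ they were 37 in DESeq2 and 2 with the covariate and library 1 left out.

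Log2 differences that changed sign were these. Acan against both controls was 0.28 in limma voom, 0.20 with the covariate, 0.31 with the covariate and library 1 left out, and -0.21 to 0.23 with a library left out. Acan against Mkx flox/+ was 0.082 and 0.17 with these covariate settings and -0.41 to 0.0049 with a library left out, and against Mkx-CreER/+ -0.049 to 0.69. With a library left out, Vcan was -0.48 to 0.042 against Mkx-CreER/+. For Mkx-CreER/+ against Mkx flox/+, Vcan was -0.48 to 0.037, Cd44 -0.23 to 0.034 and Hapln1 -0.48 to 0.36, and Hapln1 was -0.30 in limma voom. The Acan to Vcan ratio was -0.020 to 0.52 against both controls and -0.12 to 0.42 against Mkx flox/+. The Hapln1 to Acan ratio was -0.013 to 0.82 against Mkx-CreER/+ and 0.20 to 1.03 against both controls, where the unadjusted exact permutation p was 0.0357 without Mkx-CreER/+ library 1 (0.82).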

Other observations

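The hyaluronan and lectican genes were also compared between the control genotypes, with 0 of the 98 tested list genes called in edgeR, DESeq2 or limma voom. At an unadjusted p under 0.05 there were 11 of the 98, where 4.98% of all tested genes were. The gene of smallest p in each list, Mkx-CreER/+ against Mkx flox/+, was Ugp2 for hyaluronan synthesis (log2 difference 0.71), the hyaluronan receptor layilin, Layn, for turnover and receptors (0.57), Habp4 for hyaluronan binding (-0.38), Htra1 for the cleaving enzymes (-0.93, SE 0.24, edgeR adjusted p = 0.592), Ezr for the CD44 partners (-0.39), the chondroitin polymerase Chsy3 (-0.74) and Fbln2 for the lectican-binding partners (-0.65).

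Of 13 tested genes of the cartilage list, 4 fell and 0 rose relative to Mkx flox/+, where 2.90% of all genes fell and 4.37% rose. Col2a1, the collagen of cartilage, averaged 18.4 ± 17.5 CPM for Mkx-CreER/flox, 6.02 ± 2.73 CPM for Mkx-CreER/+ and 13.9 ± 3.93 CPM for Mkx flox/+ (SD, n = 3, 3 and 4), and Sox9, the transcription factor of chondrocytes, averaged 23.8 ± 7.06 CPM for Mkx-CreER/flox, 19.9 ± 8.79 CPM for Mkx-CreER/+ and 16.8 ± 2.39 CPM for Mkx flox/+, and neither passed. Relative to Mkx flox/+ the log2 difference was -2.51 for Col11a2 (edgeR adjusted p = 0.00592), -3.15 for Cnmd (adjusted p = 0.0147), -1.08 for Chad (adjusted p = 0.0243) and -0.86 for Col11a1 (adjusted p = 0.0483). These were the 4 that fell, and Matn1 had no more than 3 counts in all libraries together. Cnmd, at 0.995, 0.344 and 0.148 CPM in Mkx-CreER/flox, passed the filter on low counts through the control libraries, where it is higher. Its test, although counted among the 4, is therefore a description only.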
